A study of Homo sapiens with 8 samples.

Results

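Amino acid transporter genes were examined in cardiomyocytes made from human induced pluripotent stem cells (hiPS-CMs) after hypoxia/reoxygenation (H/R). The members were the protein-coding genes named SLC3A1 or SLC3A2, or named SLC1A, SLC7A, SLC36A, SLC38A or SLC43A followed by a number. This rule found 41 of the 60658 genes listed, with 7 in the SLC1 family, 2 in SLC3, 13 in SLC7, 4 in SLC36, 11 in SLC38 and 3 in SLC43. The remaining member, SLC7A6OS, matched by its name only. It lies on the strand opposite to SLC7A6, encodes no transporter and is known from its yeast counterpart as a factor for nuclear import of RNA polymerase II.

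The H/R+BA group and the H/R group had 4 libraries each, all from cardiomyocytes of 1 human iPSC line (253G1 in the paper, 235G1 in the sample labels). The cells of both groups were kept for 12 h at 1% O2 in low-glucose DMEM without serum and were then reoxygenated for 12 h. The regular medium of reoxygenation held serum. During reoxygenation the H/R+BA group received medium conditioned by brown adipocyte (BA) sheets in place of the regular medium. The paper does not state the serum content of the conditioned medium as given to the cells. The BA sheets were made from rat brown preadipocytes differentiated with insulin, T3, IBMX, dexamethasone and rosiglitazone and then kept with insulin and T3. None of the 8 libraries came from cells without H/R. The replicates are numbered in the labels without a statement that they were separate cultures, so the p-values measure the spread between these libraries, which may be technical.

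Amino acids cross cell membranes through carriers of several families. The SLC7 light chains work as exchangers only when bound to an SLC3 heavy chain that carries them to the surface, and the pair of SLC7A11 (xCT) with SLC3A2 (CD98) takes up cystine in exchange for glutamate, which feeds glutathione synthesis and restrains ferroptosis. SLC1 and SLC38 carriers are driven by sodium and bring in glutamate, alanine, serine, cysteine and glutamine, while some SLC36 carriers are driven by protons. Several SLC36 and SLC38 proteins sit on lysosomes, where amino acids are sensed by mTORC1. Many of these genes are known targets of ATF4, the transcription factor of the amino acid response.

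The 8 libraries held 48100296 to 53308952 reads in the H/R+BA group and 39854257 to 48898147 reads in the H/R group, and 95.4% to 96.3% of the reads were mapped. All 10 cardiomyocyte markers were tested and 0 passed the threshold in limma (2 had an unadjusted p under 0.05, 1 higher and 1 lower), and their summed level was 15346 to 18898 FPKM (fragments per kilobase of transcript, scaled to the library's size) in H/R+BA libraries and 13839 to 21755 FPKM in H/R libraries. The share of the summed FPKM taken by mitochondrially encoded genes was 13.9% to 16.5% in H/R+BA libraries and 14.9% to 21.97% in H/R libraries. Other markers differed between the groups. Over all 14334 genes tested, 13.7% were called higher and 11.1% lower, and the marker counts here stand beside these shares. The sum of 4 pluripotency markers was 8.24 to 9.28 FPKM in H/R+BA libraries and 2.97 to 3.36 FPKM in H/R libraries. NANOG was under 0.1 FPKM on average. Both tested members of the list were higher. Of these, LIN28A had at most 0.870 FPKM in any H/R library and was tested only because of its level in the H/R+BA group. The sum of 5 neural and glial markers was 140.1 to 153 FPKM in H/R+BA libraries and 196 to 219 FPKM in H/R libraries; TUBB3 carried most of it, SOX10 and ELAVL4 were under 0.1 FPKM on average, and of 3 tested, TUBB3 and MAP2 were lower and GFAP was higher (2.49 ± 0.149 FPKM in the H/R+BA group and 1.42 ± 0.442 FPKM in the H/R group, SD, n = 4 each). GFAP had 0.894 FPKM in H/R replicate 2 and needed its H/R+BA libraries to be tested. Of 7 tested fibroblast markers, 2 were higher, POSTN and DCN (5 higher and 0 lower at an unadjusted p under 0.05 in limma). Their median log2 fold change, H/R+BA over H/R, was 0.40. The fibroblast sum was 683 to 892 FPKM in H/R+BA libraries and 481 to 763 FPKM in H/R libraries. Of 4 tested smooth muscle markers, 1 was lower, MYH11 (0 higher and 2 lower at an unadjusted p under 0.05 in limma). The smooth muscle sum was 1706 to 1939.5 FPKM in H/R+BA libraries and 1817 to 2643 FPKM in H/R libraries. MYH11 had at most 0.938 FPKM in any H/R+BA library and was tested only because of its level in the H/R group. The sum of 5 adipocyte markers reached at most 0.846 FPKM.

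Of the 41 members, 28 had at least 1 FPKM in 4 or more libraries and were tested. Among them, 7 were higher in the H/R+BA group (25% of those tested), namely SLC38A5, SLC7A7, SLC43A3, SLC38A8, SLC7A4, SLC7A8 and SLC1A5, and 2 were lower (7.14%), SLC38A10 and SLC7A6. Of the 7, SLC38A8 reached 1 FPKM in only 1 H/R library and was tested because of its level in the H/R+BA group. Across all 14334 genes tested, 13.7% were called higher and 11.1% lower, 24.7% in either direction, and 38.5% had an unadjusted p under 0.05. The call was an adjusted p under 0.05 in limma on log2(FPKM + 1), two-sided, with Benjamini-Hochberg adjustment over all genes tested; all log2 fold changes below are H/R+BA over H/R on this scale, where the added 1 shrinks the change of genes near or below 1 FPKM. On the deposited normalized counts, the same model called 10 members higher and 5 lower.

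The members did not move as a block. Their median log2 fold change was 0.05, with a range of −0.35 to 1.39, beside a median of 0.01 over all genes tested. In 6 members (21.4%) every H/R+BA library lay above every H/R library, and in 3 members (10.7%) every H/R+BA library lay below, while the groups overlapped in the other 19. Over all genes tested these shares were 15.3% and 13.3%.

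**Figure D1:**
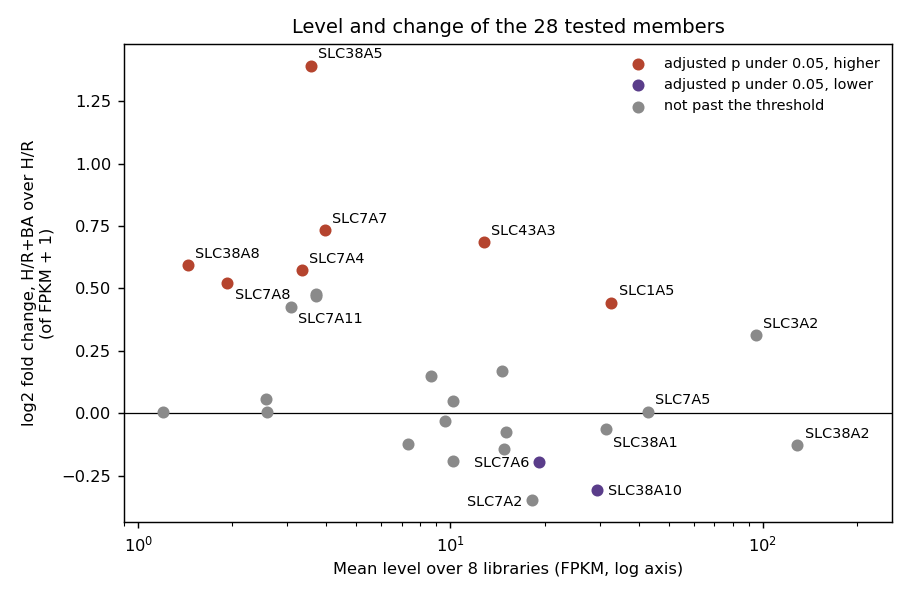
Each point is 1 of the 28 tested members. The horizontal axis gives its mean level over the 8 libraries (FPKM, log axis) and the vertical axis its log2 fold change of FPKM + 1, H/R+BA over H/R. SLC38A5 stands highest at 1.39 with a mean level of 3.58 FPKM, whereas SLC38A2, the member with the highest level (129 FPKM), lies at −0.13.

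Levels were uneven. The 3 members with the highest mean, SLC38A2, SLC3A2 and SLC7A5, held 50.01% of the summed FPKM of all members. Of the 7 members called higher, SLC1A5 had rank 4 by level and SLC43A3 rank 12, and the other 5 had means between 1.44 FPKM (SLC38A8) and 3.96 FPKM (SLC7A7).

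The 9 called members lie on 7 chromosomes (GRCh38, GENCODE 44 gene spans). SLC38A5 spans chrX:48458537-48470260, SLC1A5 chr19:46774883-46788594, SLC38A10 chr17:81244811-81295547, SLC43A3 chr11:57406954-57427580 and SLC7A4 chr22:21028718-21032840, all on the minus strand. SLC7A7 (chr14:22773222-22829820) and SLC7A8 (chr14:23125295-23183674) both lie on the minus strand of chromosome 14 and were called higher, while SLC7A6 (chr16:68264516-68301823, plus strand), called lower, and SLC38A8 (chr16:84009667-84042795, minus strand), called higher, lie on chromosome 16.

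**Figure D2:**
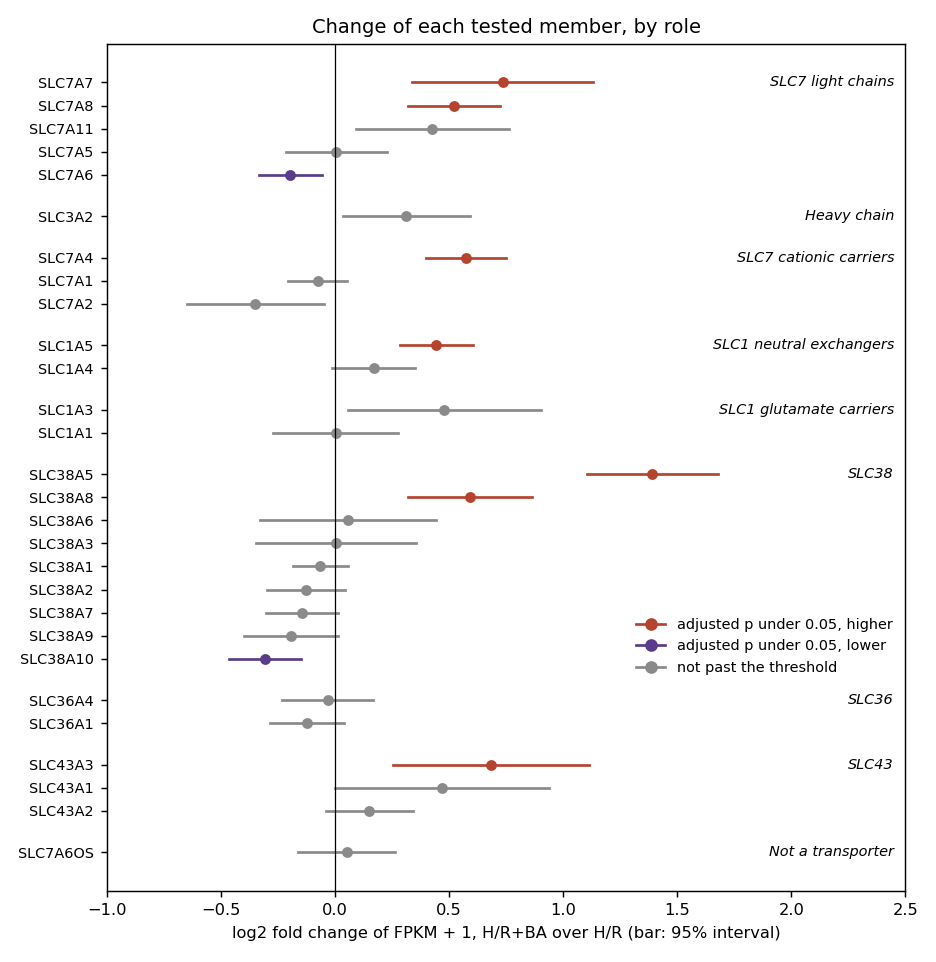
Points give the log2 fold change of FPKM + 1 (H/R+BA over H/R) of each tested member and bars its 95% interval from limma, ordered by role. Red marks the 7 members called higher, purple the 2 called lower and grey the 19 not called; SLC38A10 has its whole interval below 0, at −0.46 to −0.15.

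SLC3A2, the heavy chain that most SLC7 light chains need, was the member with the second highest level. Its level was 104, 103, 113 and 99.2 FPKM in H/R+BA libraries 1 to 4, against 84.2, 88.8, 63.9 and 104 FPKM in H/R libraries 1 to 4. The groups overlapped only through H/R replicate 4, which matched H/R+BA replicate 1. The mean was 105 ± 5.69 FPKM in the H/R+BA group and 85.3 ± 16.6 FPKM in the H/R group (SD, n = 4 each), a log2 fold change of 0.31 ± 0.12 (SE) that did not pass the test (limma, Benjamini-Hochberg adjusted p = 0.0939). Without H/R replicate 4 the log2 fold change was 0.42 and it passed (limma adjusted p = 0.0278). In the other 15 of 16 alternative settings SLC3A2 was not called. The other heavy chain, SLC3A1 (rBAT), which serves kidney and gut, had at most 0.185 FPKM in any library.

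Of the 8 light chains, 5 were tested. SLC7A7 and SLC7A8 rose, SLC7A6 fell, and SLC7A11 and SLC7A5 did not pass. The summed level of the light chains was 72.4 ± 1.92 FPKM in the H/R+BA group and 70.4 ± 8.89 FPKM in the H/R group (SD, n = 4 each), since SLC7A5 makes up most of it.

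SLC7A5 (LAT1), which takes up leucine and other large neutral amino acids, had 40.7, 43.4, 43.1 and 43.6 FPKM in H/R+BA libraries and 40.2, 48.0, 34.7 and 48.6 FPKM in H/R libraries. The H/R values lay on both sides of the H/R+BA values. The log2 fold change was 0.01 with a 95% interval of −0.22 to 0.23 (limma adjusted p = 0.968). Its pseudogenes SLC7A5P1 and SLC7A5P2 are listed with mean levels of 0.760 and 1.40 FPKM, and reads shared with them would be uncertain.

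SLC7A11, the cystine carrier xCT, had 4.47, 3.08, 3.63 and 3.48 FPKM in H/R+BA libraries and 1.96, 2.15, 2.28 and 3.63 FPKM in H/R libraries. Again H/R replicate 4 alone reached into the range of the H/R+BA group. The log2 fold change was 0.43 ± 0.15 (SE; 95% interval 0.09 to 0.76) and missed the threshold (limma adjusted p = 0.0640). The call was made without H/R replicate 4 (log2 fold change 0.57, limma adjusted p = 0.0106) and on the normalized counts (0.52, limma adjusted p = 0.0179). SLC7A11 stayed uncalled in 14 of 16 alternative settings.

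SLC7A7 (y+LAT1), a light chain that exports arginine and lysine in exchange for neutral amino acids and is known from gut, kidney and macrophages, had 3.95, 4.72, 5.396 and 6.67 FPKM in H/R+BA libraries against 3.00, 3.60, 1.71 and 2.64 FPKM in H/R libraries. Every H/R+BA library was above every H/R library, though the lowest H/R+BA value and the highest H/R value were close. The mean was 5.19 ± 1.15 FPKM in the H/R+BA group and 2.74 ± 0.791 FPKM in the H/R group (SD, n = 4 each), and the log2 fold change was 0.73 ± 0.18 (SE; limma adjusted p = 0.0151). The call was lost with no filter on low values (limma adjusted p = 0.0537) and with no moderation of the variance (adjusted p = 0.0568 over all genes).

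SLC7A8 (LAT2), a carrier of large and small neutral amino acids, had 2.31, 2.68, 2.41 and 2.43 FPKM in H/R+BA libraries against 1.58, 1.22, 1.25 and 1.60 FPKM in H/R libraries. The groups were clearly apart at this low level. The mean in the H/R+BA group was 1.74 times that in the H/R group, with a log2 fold change of 0.52 ± 0.09 (SE; limma adjusted p = 0.00363).

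SLC7A6 (y+LAT2), the relative of SLC7A7 found in most tissues, fell to 17.8 ± 0.620 FPKM in the H/R+BA group, against 20.5 ± 1.40 FPKM in the H/R group (SD, n = 4 each). Every H/R+BA library (17.1 to 18.4 FPKM) lay below every H/R library (18.5 to 21.6 FPKM), by a narrow margin. The log2 fold change was −0.19 ± 0.06 (SE; limma adjusted p = 0.0463), and the call was lost in 11 of 16 alternative settings, among them the omission of any 1 of 7 libraries (limma adjusted p = 0.0693 to 0.116). SLC7A6 also shares 3372 exonic bases with SLC7A6OS on the other strand, and the strand setting of the counting is not stated in the sources at hand, so reads of the pair may not be told apart. SLC7A6OS itself had 10.4 ± 0.758 FPKM in the H/R+BA group and 10.0 ± 1.27 FPKM in the H/R group (SD, n = 4 each; limma adjusted p = 0.732).

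**Figure D3:**
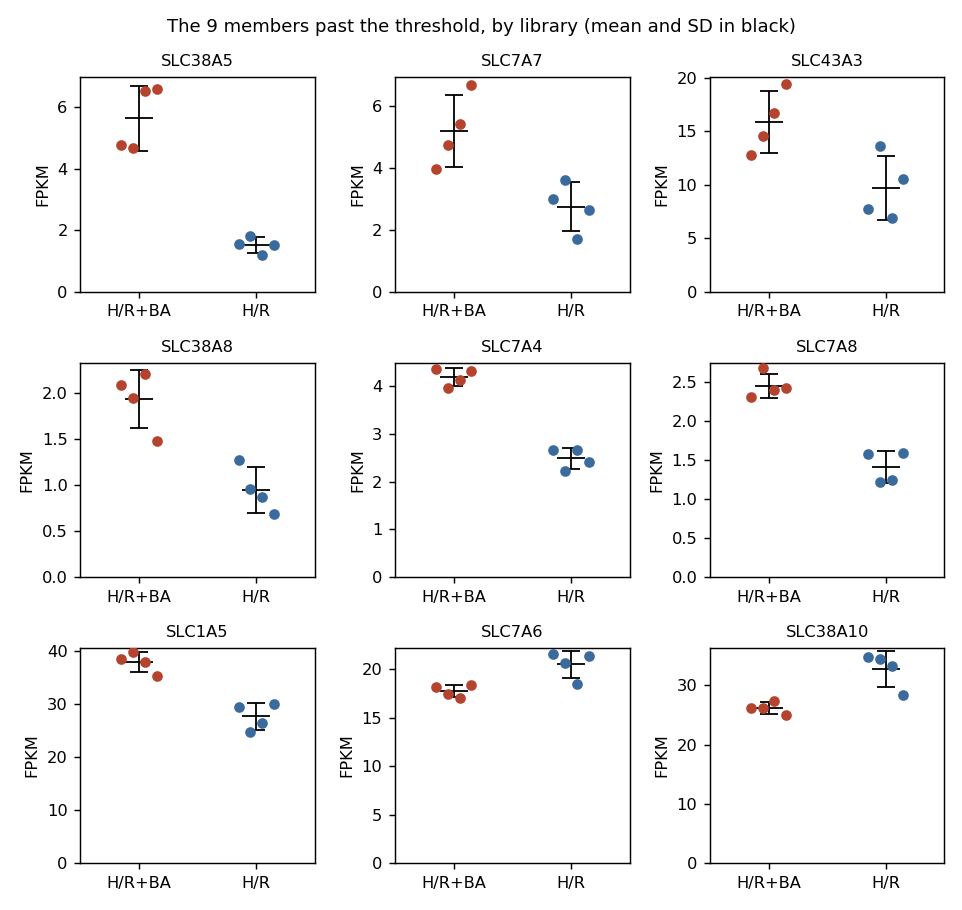
FPKM of the 9 members past the threshold in each library, with H/R+BA in red to the left and H/R in blue to the right of each panel, and the mean and SD (n = 4) in black. The groups do not overlap in 8 of the panels, and in SLC43A3 the H/R library at 13.6 FPKM lies above the lowest H/R+BA library at 12.8 FPKM.

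Among the SLC7 carriers that work without a heavy chain, 3 of 5 were tested. SLC7A4, an orphan of this group with no settled substrate, rose, and the arginine and lysine carriers SLC7A1 (CAT1) and SLC7A2 (CAT2) did not pass. SLC7A4 had 4.36, 3.96, 4.13 and 4.32 FPKM in H/R+BA libraries against 2.66, 2.21, 2.67 and 2.41 FPKM in H/R libraries. No H/R library came near the H/R+BA range, and a log2 fold change of 0.57 ± 0.08 (SE; limma adjusted p = 0.00124) gave it the smallest p after SLC38A5 among the members. In the reference annotation, 1803 of its 2450 exonic bases are shared with another gene model on the same strand (ENSG00000291240), which the deposited table does not list, so the counts were not divided between them.

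SLC7A2 averaged 15.8 ± 1.33 FPKM in the H/R+BA group and 20.6 ± 4.19 FPKM in the H/R group (SD, n = 4 each), with a log2 fold change of −0.35 (limma adjusted p = 0.0864). Its H/R libraries were uneven, from 15.1 FPKM in replicate 2 to 24.4 FPKM in replicate 4. Without H/R replicate 2 the log2 fold change was −0.48 and passed (limma adjusted p = 0.00647), as it did on the normalized counts (−0.40, limma adjusted p = 0.0464). SLC7A2 stayed uncalled in 14 of 16 alternative settings. SLC7A1 had 14.6 ± 0.492 FPKM in the H/R+BA group and 15.5 ± 0.768 FPKM in the H/R group (SD, n = 4 each; log2 fold change −0.08, 95% interval −0.20 to 0.05).

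Both neutral exchangers of the SLC1 family were tested. SLC1A5 (ASCT2), a major route for glutamine and other small neutral amino acids, had 38.6, 39.7, 37.9 and 35.3 FPKM in H/R+BA libraries against 29.5, 24.7, 26.4 and 30.04 FPKM in H/R libraries. No library of one group reached the range of the other. The mean was 37.9 ± 1.88 FPKM in the H/R+BA group and 27.6 ± 2.54 FPKM in the H/R group (SD, n = 4 each), a log2 fold change of 0.44 ± 0.07 (SE; limma adjusted p = 0.00251). Among the members called higher it had by far the highest level. SLC1A5 shares 780 of its 3332 exonic bases with a model on the other strand (ENSG00000275719, mean 1.08 FPKM), and the strand setting is not stated. SLC1A4 (ASCT1), which exchanges alanine, serine and cysteine, had 15.5 ± 0.776 FPKM in the H/R+BA group and 13.7 ± 1.58 FPKM in the H/R group (SD, n = 4 each; log2 fold change 0.17, limma adjusted p = 0.153). It passed on the normalized counts (limma adjusted p = 0.0246) and without H/R replicate 1 (limma adjusted p = 0.0380), and stayed uncalled in 14 of 16 alternative settings.

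Of the 5 glutamate carriers of the SLC1 family, 2 were tested and neither passed. SLC1A3 (EAAT1), known from glia and also present in heart mitochondria of rodents, ranged from 2.80 to 6.57 FPKM in the H/R+BA group and from 2.25 to 3.34 FPKM in the H/R group. The spread within the H/R+BA group was wide, with replicate 4 inside the H/R range. Its log2 fold change was 0.48 ± 0.19 (SE; limma adjusted p = 0.0935). Without H/R+BA replicate 4 it was 0.65 and passed (limma adjusted p = 0.0229), as it did on the normalized counts (0.68, limma adjusted p = 0.00575). SLC1A3 stayed uncalled in 14 of 16 alternative settings. SLC1A1 (EAAT3) had a log2 fold change of 0.00 (95% interval −0.27 to 0.28).

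The SLC38 family held both the strongest rise and a fall. Of its 11 members, 9 were tested; SLC38A5 and SLC38A8 rose, SLC38A10 fell and 6 did not pass. SLC38A5 (SNAT5) moves glutamine, asparagine, serine, glycine and histidine with sodium in exchange for protons. It had 4.77, 4.67, 6.52 and 6.61 FPKM in H/R+BA libraries against 1.55, 1.80, 1.19 and 1.52 FPKM in H/R libraries. The lowest H/R+BA library was well above the highest H/R library. The mean of 5.64 ± 1.07 FPKM in the H/R+BA group was 3.72 times the mean of 1.52 ± 0.251 FPKM in the H/R group (SD, n = 4 each). The log2 fold change of 1.39 ± 0.13 (SE; limma adjusted p = 0.000268) ranked 20 among all 14334 genes tested, from the largest increase down, and stayed between 1.32 and 1.86 in 16 alternative settings.

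SLC38A5 lies on the minus strand of chromosome X. The stretch of 250 bases before its start site (chrX:48470261-48470510, minus strand, RefSeq on GRCh38.p14) is shown because SLC38A5 changed most among the members. The window lies directly next to the GENCODE 44 span of SLC38A5, is 60.8% G or C, and holds 1 match to ACGTG. These letters were searched for because they occur in elements of hypoxia-inducible factors. They do not show which factor, if any, binds there, and binding was not tested. The capitals mark that match as CACGTG, a palindrome that holds ACGTG on both strands.
SLC38A5: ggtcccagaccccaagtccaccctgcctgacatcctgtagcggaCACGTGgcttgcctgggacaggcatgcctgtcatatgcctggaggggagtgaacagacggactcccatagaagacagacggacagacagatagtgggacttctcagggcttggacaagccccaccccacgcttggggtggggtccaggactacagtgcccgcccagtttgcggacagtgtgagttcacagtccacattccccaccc

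SLC38A8 (SNAT8), a glutamine carrier known mainly from the retina, had 2.09, 1.95, 2.21 and 1.49 FPKM in H/R+BA libraries against 1.27, 0.961, 0.872 and 0.688 FPKM in H/R libraries. The groups were apart, but H/R replicate 1 was the only H/R library at 1 FPKM or more, so the gene was tested because of its level in the H/R+BA group. Its log2 fold change was 0.59 ± 0.12 (SE; limma adjusted p = 0.00750). It rests on few fragments, on average 57.6 normalized counts in the H/R+BA group and 29.8 in the H/R group. SLC38A8 shares 431 of its 1991 exonic bases with a gene model on the other strand (ENSG00000285792), for which no level is listed. As the strand setting is not stated, reads of that strand may have been counted.

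SLC38A10 (SNAT10), an intracellular member of the family, had 26.2, 26.1, 27.4 and 24.97 FPKM in H/R+BA libraries against 34.8, 34.5, 33.3 and 28.3 FPKM in H/R libraries. It fell in the H/R+BA group, and the groups did not overlap, though H/R replicate 4 came close. Its log2 fold change was −0.31 ± 0.07 (SE; limma adjusted p = 0.0127), and the call held in 16 of 16 alternative settings.

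SLC38A2 (SNAT2), the carrier that cells are known to raise when amino acids run short, had the highest level of all members. It had 128, 116, 118 and 129.95 FPKM in H/R+BA libraries and 121, 126, 149.7 and 142 FPKM in H/R libraries. The groups overlapped, and the log2 fold change of −0.13 (95% interval −0.30 to 0.04) did not pass (limma adjusted p = 0.249). On the normalized counts it was −0.33 and passed (limma adjusted p = 0.0281), whereas in 15 of 16 alternative settings SLC38A2 was not called. SLC38A1 (SNAT1), the other widespread glutamine carrier of this kind, had 30.8 ± 1.41 FPKM in the H/R+BA group and 32.2 ± 1.29 FPKM in the H/R group (SD, n = 4 each; log2 fold change −0.06, 95% interval −0.18 to 0.06).

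The lysosomal members of the family did not pass on FPKM. SLC38A9, the arginine sensor that signals to mTORC1, had 9.46 ± 0.715 FPKM in the H/R+BA group and 10.98 ± 1.42 FPKM in the H/R group (SD, n = 4 each; log2 fold change −0.19, limma adjusted p = 0.156). SLC38A7, which releases glutamine and asparagine from lysosomes, had every H/R+BA library (13.8 to 14.3 FPKM) below every H/R library (14.4 to 17.7 FPKM). Its log2 fold change of −0.14 had a limma adjusted p of 0.165. SLC38A7 passed on the normalized counts (−0.15, limma adjusted p = 0.0274) and stayed uncalled in 15 of 16 alternative settings. The log2 fold changes of SLC38A6 and SLC38A3 were 0.06 and 0.01, with 95% intervals of −0.33 to 0.44 and −0.34 to 0.36.

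SLC36A1 (PAT1) and SLC36A4 (PAT4), carriers of lysosomes and other membranes, were the tested members of the SLC36 family. SLC36A1 had 6.99 ± 0.602 FPKM in the H/R+BA group and 7.68 ± 0.185 FPKM in the H/R group (SD, n = 4 each; log2 fold change −0.12, limma adjusted p = 0.247). SLC36A4 had a log2 fold change of −0.03 (95% interval −0.23 to 0.17).

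All 3 SLC43 members were tested. SLC43A3, which carries purine nucleobases rather than amino acids, had 12.8, 14.6, 16.7 and 19.4 FPKM in H/R+BA libraries against 7.75, 13.6, 6.87 and 10.6 FPKM in H/R libraries. It was the 1 called member whose groups overlapped, through H/R replicate 2. A log2 fold change of 0.68 ± 0.19 (SE) passed the test (limma adjusted p = 0.0280). The call was lost in 7 of 16 alternative settings: with no filter (limma adjusted p = 0.0899), with no moderation of the variance (0.0942), and without H/R+BA replicate 2, 3 or 4 or H/R replicate 1 or 3 (limma adjusted p = 0.0545 to 0.0747). The annotation also gives 1349 exonic bases in common with another model on the same strand (ENSG00000254979, mean 0.359 FPKM).

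The leucine and phenylalanine carriers SLC43A1 (LAT3) and SLC43A2 (LAT4) did not pass. SLC43A1 had 4.42 ± 0.872 FPKM in the H/R+BA group and 3.02 ± 1.23 FPKM in the H/R group (SD, n = 4 each; log2 fold change 0.47, limma adjusted p = 0.130). Its H/R libraries ranged from 1.62 FPKM in replicate 3 to 4.58 FPKM in replicate 2. Without H/R replicate 2 the log2 fold change was 0.64 (limma adjusted p = 0.0283). SLC43A1 stayed uncalled in 15 of 16 alternative settings. SLC43A2 had 9.21 ± 0.989 FPKM in the H/R+BA group and 8.17 ± 0.597 FPKM in the H/R group (SD, n = 4 each; log2 fold change 0.15, limma adjusted p = 0.224).

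SLC7A7 and SLC43A3 varied among libraries together with the sum of leukocyte markers, in an order of H/R libraries that other genes also had. The sum of 6 leukocyte markers was 13.6, 14.7, 15.9 and 19.2 FPKM in H/R+BA libraries 1 to 4 against 8.86, 13.4, 5.64 and 8.75 FPKM in H/R libraries 1 to 4. Within the H/R+BA group the order of the libraries is that of SLC7A7 and of SLC43A3, and in the H/R group replicate 2 was highest and replicate 3 lowest in all 3 measures. CD68, a lysosomal protein of macrophages that other cells also make, carried most of this sum, with 9.83 to 14.2 FPKM in the H/R+BA group and 3.60 to 7.68 FPKM in the H/R group. PTPRC (CD45), the defining marker of leukocytes, was listed at 0 in every H/R+BA library and at up to 0.0507 FPKM in the H/R group. Of the 6 leukocyte markers, 3 were tested and 2 passed, both higher, and over all genes tested 13.7% were called higher. Of these 2, CSF1R had 0.573 to 1.40 FPKM in the H/R group and was tested because of its level in the H/R+BA group. The sum of 6 hepatic and endoderm markers (6 tested, 1 higher) was 517, 590.4, 909 and 819 FPKM in H/R+BA libraries against 509.9, 1164, 408 and 848 FPKM in H/R libraries, again with replicate 2 highest and replicate 3 lowest in the H/R group. So were SLC43A1 (4.58 and 1.62 FPKM), ATF4 (217 and 133 FPKM) and PHGDH (33.3 and 20.3 FPKM), named after their values were seen. STC2 was not, with its lowest H/R level in replicate 2 (80.6 FPKM). The mitochondrial share was lowest in H/R replicate 2 (14.9%) and highest in replicate 3 (21.97%).

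Of 10 endothelial markers, 8 were tested and 7 were higher, where 13.7% of all genes tested were higher. Their summed level was 123 to 139 FPKM in H/R+BA libraries and 81.2 to 88.2 FPKM in H/R libraries. EGFL7 carried most of this sum, with 65.1 to 81.3 FPKM in the H/R+BA group and 46.9 to 65.6 FPKM in the H/R group. TEK, named for this limit, had at most 0.969 FPKM in any H/R library and was tested only because of its level in the H/R+BA group. PECAM1 (0.818 to 1.08 FPKM in the H/R group) and TIE1 (0.665 to 1.35 FPKM) were also called higher. Each was under 1 FPKM in some H/R library and needed its H/R+BA libraries to be tested. The defining markers VWF and CLDN5 were under 0.1 FPKM on average. The part of these markers' cell types, and of the fibroblast, smooth muscle and neural markers given above, in the levels of the members was not tested, and in bulk libraries fewer cells of a type and less RNA per cell cannot be told apart.

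**Figure D4:**
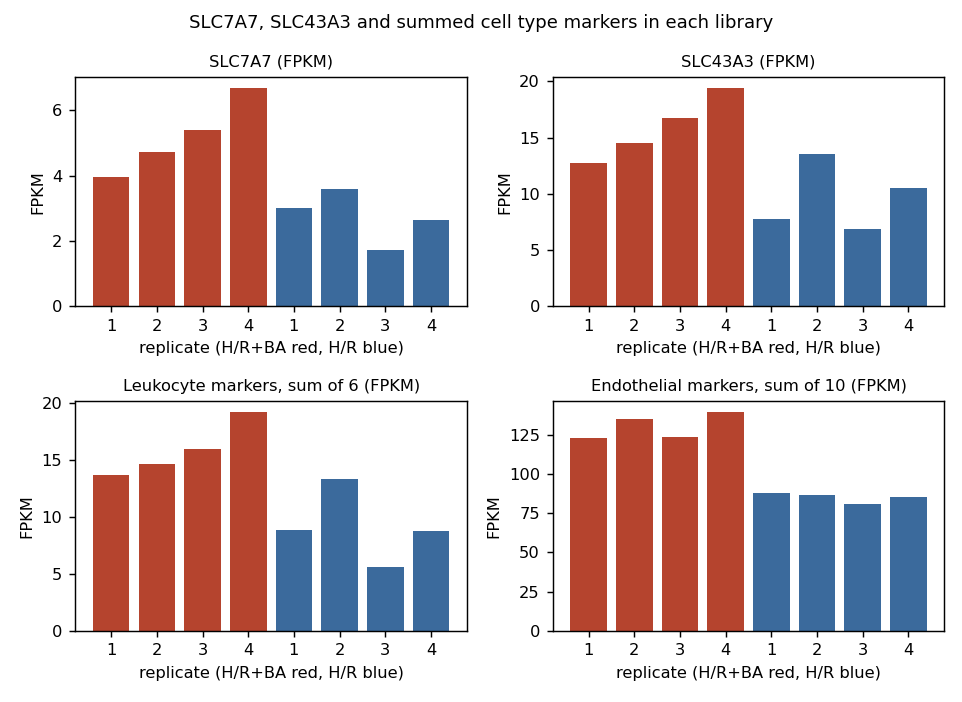
Bars give FPKM in each library, with H/R+BA replicates 1 to 4 in red to the left and H/R replicates 1 to 4 in blue to the right: SLC7A7, SLC43A3, the sum of 6 leukocyte markers and the sum of 10 endothelial markers. H/R replicate 2 is the highest H/R library for SLC7A7 (3.60 FPKM), SLC43A3 (13.6 FPKM) and the leukocyte sum (13.4 FPKM) but not for the endothelial sum (86.9 FPKM).

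The balance between partners was compared within libraries as 4 log2 ratios of FPKM + 1. The ratio of SLC7A5 to its heavy chain SLC3A2 was −1.33, −1.23, −1.36 and −1.17 in H/R+BA libraries against −1.05, −0.87, −0.86 and −1.08 in H/R libraries. Every H/R+BA library was below every H/R library, including H/R replicate 4. The difference of −0.31 had an exact permutation p of 0.0286 (two-sided, the smallest that 4 against 4 allow). After Benjamini-Hochberg adjustment over the 4 ratios this p was 0.114, the lowest that 1 ratio alone can reach. The ratio could therefore not pass by itself, and no conclusion is drawn from its not passing. The ratio of SLC1A5 to SLC1A4 averaged 1.24 ± 0.0290 in the H/R+BA group and 0.97 ± 0.183 in the H/R group (SD, n = 4 each; exact permutation p = 0.0571, adjusted 0.114). Those of SLC7A11 to SLC3A2 and of SLC38A2 to SLC38A1 differed by 0.11 and −0.06 (exact permutation p = 0.486 for each, adjusted 0.486).

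The other 13 members were not tested. Of these, 9 had a mean under 0.1 FPKM, and the 4 above it were SLC7A9, SLC38A4, SLC7A10 and SLC7A3, with no value above 0.557 FPKM in any library. They include carriers known from kidney (SLC7A9), liver (SLC38A4) and brain (SLC1A2, SLC1A6, SLC7A10 and SLC7A14). SLC7A13 was listed at 0 FPKM in all 8 libraries.

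Promoters were searched for TGATGNAA, the type of element bound by ATF4 with C/EBP factors, TGACNNNGC, the type bound by NRF2, and ACGTG, on both strands, in RefSeq windows of 300 bases (250 before and 50 after a start site, GRCh38.p14). Of the 41 members, 32 were found there by symbol, with 54 windows. TGATGNAA was in 6 windows (11.1%, against 3.62% of all 35116 windows), TGACNNNGC in 7 (12.96%, against 13.3%) and ACGTG in 17 (31.5%, against 21.4%). The windows of 1 gene can overlap, and a match is a description of letters. The members called higher held TGATGNAA in 1 of 12 windows (SLC1A5), TGACNNNGC in 2 of 12 (SLC1A5 and SLC7A7) and ACGTG in 5 of 12. The members called lower held TGACNNNGC in 1 of 2 windows and ACGTG in 1 of 2, both in SLC7A6. The tested members that were not called held TGATGNAA in 5 of 30 windows, TGACNNNGC in 4 of 30 and ACGTG in 8 of 30.

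The sites of 3 members that rose and of 3 that were not called are shown, since TGATGNAA stood near a start of SLC1A5, which rose, and of SLC1A4, which did not pass, and TGACNNNGC stood near starts of SLC1A5 and SLC7A7, which rose, and of SLC3A2 and SLC7A5, which did not pass. The capitals mark the match, and each line gives the strand of the gene. The first 6 belong to members called higher and the last 3 to members not called.
SLC1A5, TGATGNAA, chr19:46784894-46784921, minus strand: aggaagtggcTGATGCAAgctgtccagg
SLC1A5, TGACNNNGC, chr19:46787386-46787414, minus strand: cctggatcttGCGAGGTCAgctcccgctc
SLC1A5, ACGTG, chr19:46787328-46787353, minus strand: cgggagtggtCACGTGgacaggacgg
SLC7A7, TGACNNNGC, chr14:22819861-22819889, minus strand: cctctgggtcTGACCAGGCagtcccagct
SLC7A7, ACGTG, chr14:22816081-22816106, minus strand: aatgaaaaggCACGTGggtctggtgg
SLC7A8, ACGTG, chr14:23154507-23154532, minus strand: caattagaaaCACGTGctcagttcct
SLC1A4, TGATGNAA, chr2:64989382-64989409, plus strand: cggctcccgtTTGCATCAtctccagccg
SLC3A2, TGACNNNGC, chr11:62881652-62881680, plus strand: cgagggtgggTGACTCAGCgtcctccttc
SLC7A5, TGACNNNGC, chr16:87869491-87869519, minus strand: gcggggttccTGACGCAGCtgcgggcggc
The SLC1A4 match to TGATGNAA and the SLC1A5 match to TGACNNNGC are read on the other strand. Several of these genes have more than 1 start site in RefSeq, and the sites shown, other than that of SLC7A5, belong to starts inside the span of the gene in GENCODE 44.

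Amino acid carriers outside these families were counted for comparison. Over all genes tested, 13.7% were called higher and 11.1% lower, and several of these lists are short. Of 19 other carriers of the plasma membrane, 6 were tested, with 3 higher and 1 lower and a median log2 fold change of 0.31. SLC6A6, the taurine carrier of heart muscle, was among them, at 28.1 ± 2.46 FPKM in the H/R+BA group and 12.0 ± 0.510 FPKM in the H/R group (SD, n = 4 each; log2 fold change 1.16). The creatine carrier SLC6A8 (0.43) and the glycine carrier SLC6A9 (0.58) were also higher. The lower gene, SLC22A4, is named for its limit. It had 0.905 FPKM in H/R+BA replicate 2 and needed its H/R libraries to be tested. Of 10 tested mitochondrial carriers, 1 passed, the serine carrier SFXN1 (log2 fold change 0.24), and of 8 tested lysosomal and vesicular carriers, 1 passed, TMEM104 (−0.26).

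Genes that sense and use the carried amino acids were counted in the same way, beside the same shares over all genes tested (13.7% higher, 11.1% lower). Of 27 tested genes of the GCN2 and ATF4 pathway, 13 were higher and 0 lower in limma (16 and 0 at an unadjusted p under 0.05; median log2 fold change 0.41), among them CHAC1, which degrades glutathione (13.2 ± 0.374 FPKM in the H/R+BA group and 5.57 ± 1.31 FPKM in the H/R group, SD, n = 4 each), PSPH of serine synthesis (log2 fold change 0.71) and the secreted protein gene STC2 (0.92). Of 24 tested enzymes that use the carried amino acids, 11 were higher and 1 lower, with ASS1 of arginine synthesis at 0.65, PYCR1 of proline synthesis at 0.59 and BCAT1, which begins the breakdown of leucine, isoleucine and valine, at 0.56. The 11 include CBS, named for its limit. CBS was under 1 FPKM in every H/R library and was tested only because of its level in the H/R+BA group. ALDH1L2, 1 of the 13 higher genes of the GCN2 and ATF4 pathway, is named for a like limit. It had 0.903 FPKM in H/R replicate 2 and needed its H/R+BA libraries to be tested. Of 18 tested genes of glutathione synthesis and NRF2 targets, 5 were higher, with HMOX1 at 1.44, NQO1 at 0.69 and GGT1 at 0.34, and 1 was lower. That gene, GCLC, named after its values were seen, encodes the catalytic subunit of the first enzyme of glutathione synthesis and had 18.1 ± 1.10 FPKM in the H/R+BA group and 24.2 ± 2.49 FPKM in the H/R group (SD, n = 4 each). The 33 tested genes of amino acid sensing by mTORC1 divided into 4 higher, 7 lower and a median log2 fold change of 0.01, with ITFG2 of the KICSTOR complex at −0.52, MTOR itself at −0.24 and the leucyl-tRNA synthetase gene LARS at 0.23.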

How the data were processed

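RNA sequencing of hiPS-CMs covered 8 libraries, 4 of the H/R+BA group and 4 of the H/R group. The authors prepared stranded mRNA libraries, trimmed the reads with Trimmomatic 0.39, used HISAT2 2.1.0 to align them to GRCh38.p5, quantified genes with featureCounts 2.0.6 and named Cuffdiff 2.2.1 for their comparison. No source used here gives the annotation release. The authors deposited normalized FPKM and normalized counts per library. As deposited, these counts are a signal that the authors had scaled between libraries, and they are not whole (80.6% to 81.3% of the low values were whole multiples of the commonest step, within 0.02), so no count model was used and counting error could not be separated. The deposited sequencing summary gives reads and the percent mapped. The authors' fold changes and p-values were not used, nor were 4 columns of group means and 9 libraries of the summary that belong to other samples.

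Genes that reached 1 FPKM in 4 libraries or more (14334 of 60658) were tested on log2(FPKM + 1) with limma 3.58.1 in R 4.3.3, with a trend of variance on mean and Benjamini-Hochberg adjustment. Data were also simulated for this comparison with normal noise and 200 changed genes among 14334. The calls held 70.1% of 67 genes at a fold of 1.5, 91.0% of 67 at a fold of 2 and 100% of 66 at a fold of 4, with 7 false calls. The folds were of FPKM + 1, and a larger share of genes was called in the data (24.7%). These rates therefore need not hold for the data, least of all for members of low level. The members, lists and tests were chosen with earlier results of these data known. Values per library are given for members past the threshold with a log2 change of at least 0.3, for SLC3A2, SLC7A5 and SLC7A11, and for the 3 members with the highest mean; of each comparison list up to 3 tested genes with the smallest p were named, and exceptions are marked. Exonic overlaps came from GENCODE 44, in which all 41 members were found by gene ID, and sequences from RefSeq (GRCh38.p14). The alternatives were a pseudocount of 0.1, no filter, a filter at 10 normalized counts, the normalized counts, 2 rescalings of FPKM, no moderation, a replicate block and the omission of each library.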

Additional observations from a re-analysis of the deposited data

Results flagged for a closer look

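Among 56 groups of 4 libraries (28 tested members in both groups), 5 held a library far from the other 3 by Dixon's criterion, its gap to the nearest library set against the range of the group (8.93%, where chance gives about 1 group in 20). SLC7A5 had 40.7 FPKM in H/R+BA replicate 1 and 43.1 to 43.6 FPKM in the other H/R+BA libraries. SLC1A4 had 14.3 FPKM in H/R+BA replicate 4 and 15.7 to 15.95 FPKM in the others. SLC1A1 had 3.52 FPKM in H/R+BA replicate 2 and 2.19 to 2.37 FPKM in the others. In the H/R group, replicate 3 was high for SLC36A4 (10.95 FPKM, others 9.21 to 9.34 FPKM) and for SLC38A6 (3.83 FPKM, others 1.91 to 2.23 FPKM). None of the 5 members was called.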

How the results depend on the processing

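SLC1A5, SLC38A5, SLC38A8, SLC38A10, SLC7A4 and SLC7A8 kept their direction and their call in 16 of 16 alternatives. The count of members called lower was 1 with no filter, equal totals, no moderation or the replicate block, and 5 on the deposited normalized counts; with 1 library left out it ranged from 1 to 2, and the count called higher from 6 to 9. The count called higher was 5 with no filter or no moderation, against 7 on FPKM as tested, and 10 on the normalized counts. On the normalized counts 2595 genes in all were lower, against 1588 on FPKM; the cause was not tested. No pairing of the libraries by replicate number was seen, though so few libraries cannot exclude it. Residual correlations between the groups were 0.24, −0.24, −0.25 and −0.01 for same-numbered libraries and from −0.40 to 0.31 for the others. The replicate block changed the call of SLC7A6 only among the members (limma adjusted p = 0.0705). Uncalled members near 0 changed sign: on the normalized counts SLC1A1 (−0.23), SLC38A3 (−0.19), SLC38A6 (−0.025), SLC43A2 (−0.043) and SLC7A6OS (−0.075), with a pseudocount of 0.1 SLC38A3 (−0.022), and after rescaling by median ratios SLC1A1 (−0.0054), SLC7A5 (−0.0052) and SLC38A3 (−4.11e-04). With 1 library left out the log2 fold change ranged from −0.11 to 0.059 for SLC1A1, −0.10 to 0.025 for SLC36A4, −0.11 to 0.15 for SLC38A3, −0.024 to 0.22 for SLC38A6, −0.088 to 0.071 for SLC7A5 and −0.036 to 0.090 for SLC7A6OS. The differences of the 4 partner ratios kept their sign with a pseudocount of 0.1, on the normalized counts and with each library left out; their p-values say nothing of stability, since 1 ratio alone cannot go below 0.114 after adjustment over 4. Members of low level rest on few fragments, and FPKM does not show their counting error.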
